A study of Mus musculus with 74 samples.

Results

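Apc encodes the scaffold of the complex that marks β-catenin for destruction, so it holds down canonical Wnt signalling, and its loss is the classic first step of intestinal tumours. In the lung, Wnt signals maintain alveolar type 2 cells, from which adenomas can grow, and Apc is mutated in a minority of lung adenocarcinomas. The tumours described here carried at least 1 guide RNA against Apc in a pool of lentiviral vectors that each held a barcode, a pair of guides and Cre. They were selected by the guide names alone, as tumours whose first or second guide named Apc. Vectors with the same guide at both places (177 Apc tumours) and with the guide NE (1217 Apc tumours) were left out. The rest numbered 31702 of the 342937 tumours analysed, over 120 guide pairs built on 2 Apc guides (Apc_V1 and Apc_V2), and lay beside an inert guide, beside the other Apc guide, beside a guide against 1 of 15 partner genes reported here or beside 1 further partner.

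The pool was given to 3 groups of mice, and lungs were collected about 3 months later. The first group, H11-Cas9, held 45 mice with the R26LSL-Tomato reporter and a constitutive Cas9 allele. The second, H11-LSL-Cas9, held 20 such mice whose Cas9 is switched on by Cre. The third, KT, held 9 mice with the reporter but no Cas9, so their guides could not cut and they recorded what the virus supplied. In all 3 groups Cre from the vector started the tumours and switched on the Tomato reporter in the same cell, so the groups share how their tumours began. Each Apc value was set against tumours with 2 inert guides (inert/inert) in the same mouse. The 5 inert guides (safe_V1, safe_V2, safe_V3, NT_V1 and EGFP_V1) were pooled, and DNA cutting was not matched between Apc and inert guides. The unit of replication was the mouse. Editing of Apc, its RNA and its protein were not measured, so an Apc tumour here is one that carried an Apc guide.

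The deposited table lists each tumour with its reads and its cell number, which was scaled by spiked-in barcodes. H11-Cas9 mice held a median of 2570 tumours (1013 to 5364), H11-LSL-Cas9 mice 2657.5 (4 to 4941) and KT mice 19521 (13191 to 41166). Reads per mouse ran from 118601 to 6256147 in H11-Cas9, from 37 to 1161475 in H11-LSL-Cas9 and from 1434013 to 11183386 in KT. The smallest listed tumour had 50.1 cells and the lowest read count was 3, so number here counts tumours above a floor. The smallest tumour of a mouse had 50.1 to 105 cells in H11-Cas9, 50.4 to 369 cells in H11-LSL-Cas9 and 50.4 to 56.2 cells in KT. H11-LSL-Cas9 mice 3, 7 and 8 stood apart with 16, 4 and 870 tumours and under 5 inert/inert tumours each, and they did not enter number comparisons. Spike-in totals were near 100000 cells in 25 H11-Cas9 and 5 KT mice and near 300000 cells in 20 H11-Cas9, 4 KT and all 20 H11-LSL-Cas9 mice.

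Relative to inert/inert tumours, Apc/inert tumours were fewer in H11-Cas9 than in KT mice. Tumours with an Apc guide made up 6.58% to 9.21% of a mouse's tumours in H11-Cas9 (median 7.86%), 8.40% to 25% in H11-LSL-Cas9 (median 9.20%, the highest in a mouse with 4 tumours) and 9.68% to 10.6% in KT. For Apc beside an inert guide, there were 1041 tumours against 1107 inert/inert tumours in H11-Cas9, 513 against 400 in H11-LSL-Cas9 and 2235 against 1466 in KT. Every H11-Cas9 or H11-LSL-Cas9 value was therefore read against the surplus of Apc vectors that KT mice show.

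Per mouse, the ratio of Apc/inert to inert/inert tumours was 0.556 at the lowest, 0.926 at the median and 3 at the highest in H11-Cas9 mice. In H11-LSL-Cas9 mice it was 0.824, 1.33 and 2.33, and in KT mice 1.36, 1.53 and 1.70. Most H11-Cas9 mice lay below all KT mice, while the H11-LSL-Cas9 mice lay on both sides of them. Against KT, the number fell to 0.629-fold in H11-Cas9 (log2 difference -0.67 ± 0.07, SE, 45 against 9 mice), with a permutation p of 1e-05, the smallest that 100000 permutations allow, and 3.4e-05 after adjustment over 17 genes. A lower number was called at the 0.05 level for 52.9% of the 17 genes in that group, and Apc ranked 5 of 17 from the lowest. In H11-LSL-Cas9 the difference was -0.22 ± 0.11 (0.858-fold, 17 against 9 mice, permutation p = 0.0586, adjusted p = 0.0996) and did not pass, where 23.5% of genes did. The direct difference between the Cas9 groups was -0.45 ± 0.12 (adjusted permutation p = 0.00357), so the fall was the larger one in H11-Cas9. Within H11-Cas9 it was -0.67 at either spike-in total (adjusted permutation p = 0.0001 near 100000 and 0.0011 near 300000).

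**Figure D1:**
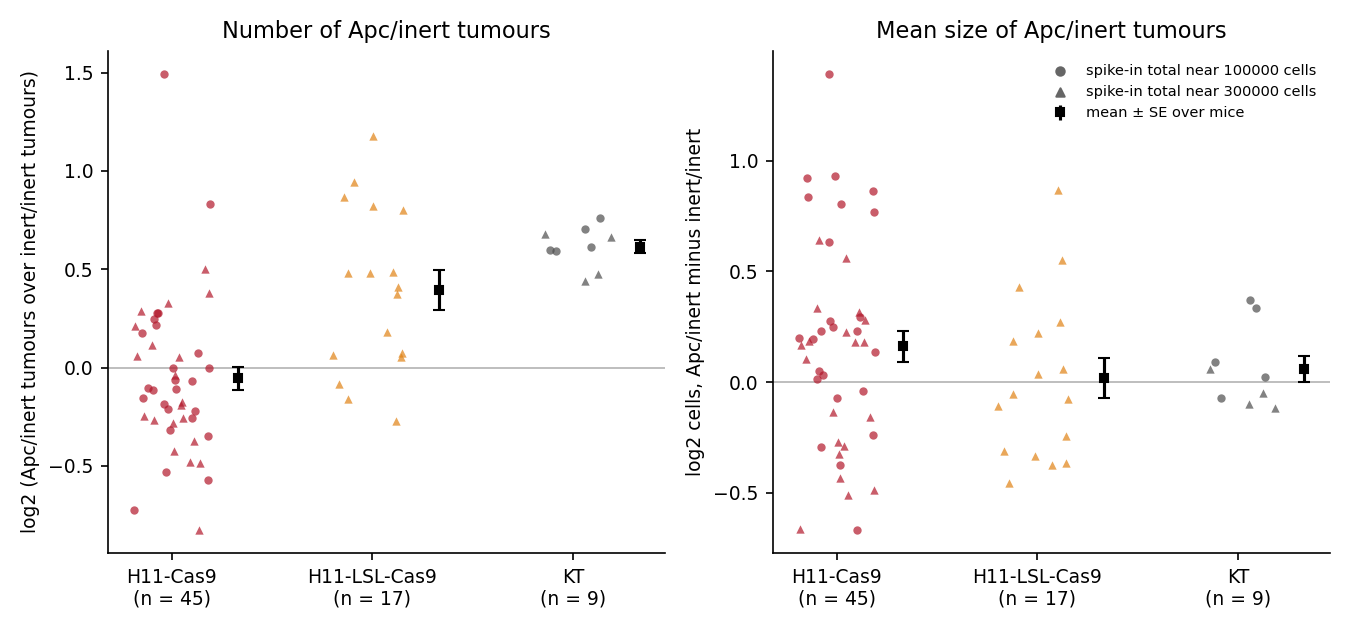
Each point is 1 mouse: left, log2 of the ratio of Apc/inert to inert/inert tumours, and right, the difference in mean log2 cells between those tumours, in H11-Cas9, H11-LSL-Cas9 and KT mice, with marker shape for the spike-in total and black squares for the mean ± SE. H11-Cas9 mice sit mostly below the 9 KT mice on the left (KT ratios 1.36 to 1.70), and the 3 groups overlap widely on the right.

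The pair of Apc guides differed in how far number fell. In H11-Cas9, tumours with Apc_V2 beside an inert guide fell to 0.495-fold of the KT level (log2 -1.01 ± 0.08, permutation p = 1e-05, the smallest possible), and those with Apc_V1 lay at 0.861-fold (-0.22 ± 0.10, permutation p = 0.0304). The difference between the guides, Apc_V2 minus Apc_V1, was -0.80 ± 0.10 (permutation p = 1e-05). The same order held in H11-LSL-Cas9, where Apc_V2 lay at -0.39 ± 0.11 and Apc_V1 at 0.04 ± 0.15 (difference -0.43 ± 0.14, permutation p = 0.00712). Whether the Apc guide stood in the second or the first place gave no difference past the threshold (second minus first -0.11 ± 0.12 in H11-Cas9, permutation p = 0.369, and for H11-LSL-Cas9 -0.24 ± 0.14, permutation p = 0.0854). In mean size, the second place minus the first was -0.26 ± 0.12 on the log2 scale in H11-LSL-Cas9 (17 mice, permutation p = 0.0400) and -0.12 ± 0.11 in H11-Cas9 (permutation p = 0.300). With both Apc guides in 1 vector, 62 tumours were found in H11-Cas9 against 230 in KT, a fall to 0.395-fold (-1.34 ± 0.17, adjusted permutation p = 2.5e-05), where 70% of 10 genes tested in this way passed. That was a further 0.628-fold relative to Apc beside an inert guide (-0.67 ± 0.19, adjusted permutation p = 0.0184, with 50% of genes passing). In H11-LSL-Cas9 the vectors with both guides lay at -0.53 ± 0.28 (adjusted permutation p = 0.204).

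The typical Apc tumour was close in size to an inert one, and the largest Apc tumours were far larger. In H11-Cas9 the median Apc/inert tumour had 152 cells and the median inert/inert tumour 164 cells. At the 90th percentile the values were 900 and 655 cells, at the 95th 2198 and 1112 cells, and at the 99th 20200 and 3521 cells. The separation was thus widest in the upper tail. Per mouse, the 90th percentile of Apc/inert tumours lay 0.51 ± 0.18 above that of inert/inert tumours on the log2 scale (1.43-fold, higher in 26 of 44 mice, adjusted permutation p = 0.0144), where 56.2% of genes passed. It was 0.76 near 100000 spike-in cells (adjusted permutation p = 0.0183) and 0.21 near 300000 (adjusted permutation p = 0.7). The ratio at the 95th percentile was 1.98-fold (log2 0.98 ± 0.43, SE over mice by leave-one-out) and at the 99th 5.74-fold (2.52 ± 0.60). The 99th percentiles rest on the few largest of 1041 and 1107 tumours, where a leave-one-out error can be too small. The largest single tumours had 90582 and 9625 cells.

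H11-LSL-Cas9 mice also showed the long tail. Their median Apc/inert tumour had 137 cells against 164 cells for inert/inert, and the 99th percentiles were 32864 and 2115 cells, a ratio of 15.5-fold (3.96 ± 0.37). With 513 and 400 tumours, these 99th percentiles rest on few tumours, so the ratio is less certain than its leave-one-out error. The 90th percentile per mouse in this group differed by 0.17 ± 0.27 (15 mice, adjusted exact permutation p = 0.844). In KT mice the 99th percentiles were 5471 and 5411 cells, a ratio of 1.01-fold. The long tail of Apc tumours was thus seen in both groups with Cas9, and the curves of the group without Cas9 lay on each other.

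**Figure D2:**
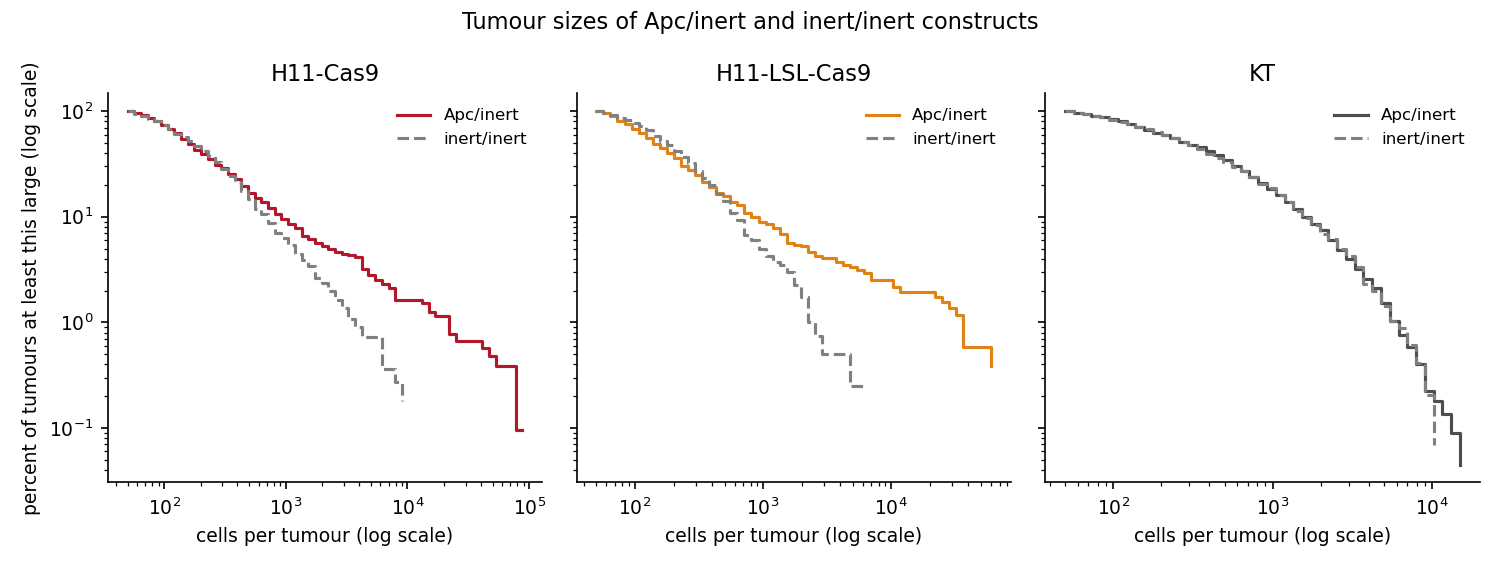
Percent of tumours at least as large as the size on the x axis (both axes log scale, cells per tumour), for Apc/inert (solid) and inert/inert (dashed) tumours, pooled over the mice of each group. The solid line lies above the dashed one over the larger sizes in H11-Cas9 and H11-LSL-Cas9. There the 99th percentiles are 20200 against 3521 and 32864 against 2115 cells. It lies below the dashed line at small sizes in H11-LSL-Cas9 and from 138 to 260 cells in H11-Cas9. The 2 lines overlie in KT.

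Averaged over tumours, the difference was small. Per mouse, mean log2 size of Apc/inert minus inert/inert tumours was -0.67 at the lowest, 0.18 at the median and 1.39 at the highest in H11-Cas9. The same values were -0.46, -0.05 and 0.87 in H11-LSL-Cas9 and -0.12, 0.02 and 0.37 in KT. The groups overlapped over most of their range. In H11-Cas9 the mean was 0.16 ± 0.07 (above 0 in 30 of 45 mice, adjusted p = 0.0369 by sign permutation within mice), where 64.7% of genes were called higher. It was 0.02 ± 0.09 in H11-LSL-Cas9 (adjusted permutation p = 0.901) and 0.06 ± 0.06 in KT (exact sign permutation p = 0.391). Set against KT, the H11-Cas9 difference was 0.10 ± 0.09 (adjusted permutation p = 0.382), which did not pass. It was 0.29 ± 0.10 in the 25 H11-Cas9 mice near 100000 spike-in cells and -0.00 ± 0.08 in the 20 near 300000, a contrast of 0.30 ± 0.13 (adjusted permutation p = 0.176).

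The share of tumours with at least 5000 cells, a size few inert tumours reached, put the tail on a per-mouse scale. This size was chosen with earlier results of these data known. In H11-Cas9, 28 of 1041 Apc/inert tumours reached it (2.69%, 95% exact binomial interval 1.79% to 3.86%), against 8 of 1107 inert/inert tumours (0.723%, 0.313% to 1.42%). In H11-LSL-Cas9 the counts were 17 of 513 (3.31%, 1.94% to 5.25%) against 1 of 400 (0.25%, 0.00633% to 1.38%). In KT they were 30 of 2235 (1.34%) against 18 of 1466 (1.23%). The intervals of Apc/inert and inert/inert did not overlap in either group with Cas9, and they cover counting error only.

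Over mice, the Apc/inert share exceeded the inert/inert share by 2.00 ± 0.60 percentage points in H11-Cas9 (higher in 18 mice, lower in 5, adjusted permutation p = 0.0034), where 58.8% of genes passed. In H11-LSL-Cas9 it exceeded it by 3.58 ± 1.08 points (higher in 11 of 17 mice, lower in 0, adjusted permutation p = 0.00578), where 17.6% of genes passed. In KT the difference was 0.02 ± 0.28 points. The H11-Cas9 value came from 1 of its spike-in totals: near 100000 cells it was 3.53 ± 0.87 points (22 of 558 Apc/inert tumours against 3 of 583 inert/inert tumours), and near 300000 cells 0.09 ± 0.59 points (6 of 483 against 5 of 524). That contrast was 3.44 ± 1.05 points (adjusted permutation p = 0.0270, 5.88% of genes passing). All H11-LSL-Cas9 mice had totals near 300000 cells. The groups with Cas9 differed from each other by -1.57 ± 1.24 points, H11-Cas9 minus H11-LSL-Cas9 (adjusted permutation p = 0.623). At 50000 cells the Apc/inert share did not pass in either group. It exceeded the inert/inert share by 0.39 ± 0.19 points in H11-Cas9 (adjusted permutation p = 0.308) and by 0.60 ± 0.35 points in H11-LSL-Cas9.

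A count that uses each mouse's own sizes was also higher for Apc in the groups with Cas9. It pools Apc with any partner, so it does not separate Apc from its partners. Among the 10 largest tumours of each mouse, 77 of 450 in H11-Cas9 carried an Apc guide with any partner, which is 17.1% against 7.81% of all tumours (difference 9.31 ± 1.83 points, higher in 38 of 45 mice, adjusted permutation p = 2.83e-05). In H11-LSL-Cas9 33 of 180 did (18.3% against 9.19%, higher in 16 of 18 mice, adjusted permutation p = 0.00578). A higher share was called for 17.6% of genes in each of these groups. In KT 9 of 90 did, 10% against 10.1% (exact permutation p = 0.832).

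The guides also differed in the tail in H11-Cas9. With any partner or an inert guide beside them, 171 of 4147 tumours with Apc_V2 reached 5000 cells (4.12%) and 127 of 4177 with Apc_V1 did (3.04%). The per-mouse difference was 1.06 ± 0.34 points (Apc_V2 higher in 35 of 45 mice, adjusted permutation p = 0.0199 over 6 such tests). In H11-LSL-Cas9 the shares were 2.85% and 3.19% (difference -0.23 ± 0.68 points, adjusted permutation p = 0.893) and in KT 1.19% and 1.45% (-0.26 ± 0.16, exact permutation p = 0.172). These shares pool all partners, which were not matched between the guides, whereas the fall in number by guide was taken beside an inert guide. Beside an inert guide alone, 19 of 522 Apc_V2 tumours (3.64%) and 9 of 519 Apc_V1 tumours (1.73%) reached 5000 cells in H11-Cas9. In H11-LSL-Cas9 the shares were 3.75% and 2.73%. The 95% exact binomial intervals of the guides overlapped in both groups.

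Number and tail together set how many tumour cells Apc vectors produced. Summed over all tumours of a mouse, the cells of Apc/inert relative to inert/inert tumours, against KT, lay at 1.14-fold in H11-Cas9 (log2 0.19 ± 0.24, adjusted permutation p = 0.516). In H11-LSL-Cas9 they rose to 2.04-fold (1.03 ± 0.33, adjusted permutation p = 0.0220, where 29.4% of genes passed). With each tumour capped at 10000 cells the H11-LSL-Cas9 value was 0.48 and did not pass (adjusted permutation p = 0.146).

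By a fixed measure, the root mean square difference over 5 size percentile ratios and the number ratio in H11-Cas9, the genes beside an inert guide whose pattern was nearest to that of Apc were Meaf6 (0.158), Setd2 (0.192) and Rb1 (0.38). The ratio at the 99th percentile was 2.52 on the log2 scale for Apc, against 2.74 for Meaf6, 2.24 for Setd2 and 2.01 for Rb1. The change in number was -0.67 for Apc, against -0.58 for Meaf6, -0.32 for Setd2 and -0.05 for Rb1. This is a likeness over 6 values in 1 group, and all of them share the same inert/inert tumours. Meaf6 had only 157 tumours beside an inert guide in H11-Cas9, 5 of them of at least 5000 cells, so its 99th percentile rests on very few. In H11-LSL-Cas9 the number change for Meaf6 was 0.01 ± 0.21, against -0.22 ± 0.11 for Apc.

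Beside a partner gene, Apc vectors also gave fewer tumours. In H11-Cas9 all 15 reported Apc pairs were called lower in number than in KT, as were 57.4% of the 136 pairs of the pool. With permutation of the plain difference of means, not scaled by its error, 8 of the 15 passed. In H11-Cas9 mice near 100000 spike-in cells 11 of the 15 passed, and near 300000 cells 9. The median over the Apc pairs was -0.71 on the log2 scale and over all pairs -0.56. In H11-LSL-Cas9 6 of 15 were called lower (27.9% of all pairs), with a median of -0.34 against -0.19. By the plain difference of means 2 of 15 did.

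For Rnf43, a ubiquitin ligase that removes Wnt receptors from the cell surface and so acts in the same pathway upstream of Apc, the ratio of pair to inert/inert tumours was 0.348, 0.692 and 1.6 in H11-Cas9 mice (lowest, median and highest), and 1.01, 1.14 and 1.27 in KT mice. The pair fell to 0.610-fold (-0.71 ± 0.07, adjusted permutation p = 2.83e-05). That was close to Apc beside an inert guide, and Rnf43 added to Apc gave -0.04 ± 0.09 (adjusted permutation p = 0.690). Apc added to Rnf43 lowered the number to 0.676-fold (-0.56 ± 0.07, adjusted permutation p = 6.04e-05).

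The GTPase-activating proteins Nf1 and Rasa1, which speed the switching off of small GTPases, were the reported partners whose Apc pairs fell least against KT in H11-Cas9. The Apc/Nf1 ratio was 0.391, 0.897 and 2.4 in H11-Cas9 mice and 0.831, 1.02 and 1.18 in KT mice, and the Apc/Rasa1 ratio was 0.333, 0.667 and 3.6 against 0.816, 0.917 and 1.07. Both groups of mice overlapped for both pairs. Against KT, Apc/Nf1 lay at 0.850-fold (-0.23 ± 0.09, adjusted permutation p = 0.0194) and Apc/Rasa1 at 0.779-fold (-0.36 ± 0.10, adjusted permutation p = 0.00317). Added to Apc, Nf1 raised the number 1.35-fold (0.44 ± 0.10, adjusted permutation p = 0.00387) and Rasa1 1.24-fold (0.31 ± 0.09, adjusted permutation p = 0.0184), the only reported partners called higher in this step, where 22.8% of all second steps in the pool were. Added to Nf1, Apc lowered it to 0.641-fold (-0.64 ± 0.08, adjusted permutation p = 6.04e-05), and added to Rasa1 to 0.678-fold (-0.56 ± 0.08).

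The tumour suppressors p53 and Rb1, which restrain the cell cycle, gave pairs of 0.693-fold (p53, -0.53 ± 0.08) and 0.676-fold (Rb1, -0.56 ± 0.09), both with an adjusted permutation p of 4.77e-05. With Apc added, p53 tumours fell to 0.594-fold (-0.75 ± 0.08, adjusted permutation p = 0.000107), the strongest such step among the 15, and Rb1 tumours to 0.701-fold (-0.51 ± 0.09, adjusted permutation p = 0.000394). Added to Apc, neither changed the number past the threshold (p53 0.14 ± 0.08, Rb1 0.11 ± 0.11).

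Lkb1, a kinase that activates AMPK and its relatives, and Keap1, the adaptor that degrades the oxidative stress factor NRF2, gave few tumours beside Apc. The Apc/Lkb1 ratio was 0.133, 0.321 and 2.2 in H11-Cas9 mice and 0.860, 1.01 and 1.22 in KT mice. Apc/Lkb1 fell to 0.337-fold (-1.57 ± 0.12) and Apc/Keap1 to 0.379-fold (-1.40 ± 0.10), each with an adjusted permutation p of 2.83e-05, against -1.19 ± 0.09 for Lkb1 and -0.97 ± 0.07 for Keap1 beside an inert guide. The step made by Apc was -0.38 ± 0.10 on Lkb1 (adjusted permutation p = 0.0127) and -0.43 ± 0.10 on Keap1 (adjusted permutation p = 0.00305).

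Among the chromatin genes, the histone H3K36 methyltransferase Setd2 gave a pair of 0.483-fold (-1.05 ± 0.09) and an Apc step of -0.73 ± 0.09 (adjusted permutation p = 6.04e-05). The methyltransferases Kmt2a and Kmt2b gave pairs of -0.71 ± 0.20 and -1.39 ± 0.16, with 60 Apc/Kmt2b tumours in H11-Cas9 and 233 in KT. The acetyltransferase Kat7 and its complex member Meaf6 gave -0.79 ± 0.22 and -0.75 ± 0.23. The RNA processing cyclins Ccnl1 and Ccnl2 gave -0.69 ± 0.16 and -0.56 ± 0.17. The partners of this paragraph other than Setd2 had between 43 and 188 Apc tumours in H11-Cas9, so their errors are larger than those of the partners above.

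Pcna, the sliding clamp that every replicating cell needs, gave the deepest fall against KT among the 15 reported pairs in both groups with Cas9. Apc/Pcna tumours per mouse were 0, 1 and 5 in H11-Cas9 (lowest, median and highest), 0, 5.5 and 13 in H11-LSL-Cas9 and 93, 144 and 259 in KT. The number fell to 0.0509-fold in H11-Cas9 (-4.30 ± 0.19, 54 against 1466 tumours) and to 0.278-fold in H11-LSL-Cas9 (-1.85 ± 0.19, 107 against 1466 tumours). Apc added nothing detectable to Pcna alone (-0.13 ± 0.18, adjusted permutation p = 0.564).

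Counted over partners, adding Apc lowered number in H11-Cas9 for 11 of 15 (33.8% of all second steps in the pool were called lower), with a median of -0.51 against -0.07 over all steps. The 4 that did not pass were Kmt2b (-0.33 ± 0.16), Kat7 (-0.24 ± 0.26), Meaf6 (-0.17 ± 0.28) and Pcna. In H11-LSL-Cas9 3 of 15 passed, where 12.5% of all steps did: Nf1 (-0.38 ± 0.13, adjusted permutation p = 0.0360), Rasa1 (-0.35 ± 0.10) and p53 (-0.35 ± 0.11), the last pair each with an adjusted permutation p of 0.0221. By the plain difference of means 6 of 15 Apc steps passed in H11-Cas9, against 0 of 15 for H11-LSL-Cas9. There, Ccnl2 added to Apc gave a higher number (0.64 ± 0.14, 1.56-fold, adjusted permutation p = 0.00553, 10.3% of steps being called higher), whereas in H11-Cas9 it lay at 0.11 ± 0.16.

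Added to Apc in H11-Cas9, 5 of 15 partners lowered the number: Pcna (-3.63 ± 0.19), Lkb1 (-0.90 ± 0.12), Keap1 (-0.73 ± 0.10), Kmt2b (-0.72 ± 0.17) and Setd2 (-0.38 ± 0.11), with adjusted permutation p between 6.04e-05 and 0.00776. In H11-LSL-Cas9 2 of 15 did so, Pcna (-1.62 ± 0.15) and Lkb1 (-0.40 ± 0.11). Both counts are near the share of all second steps called lower, 33.8% and 12.5%.

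Whether a pair departed from the product of its single effects was tested as an interaction. For number, 0 of 15 Apc interactions passed in either group with Cas9 (of all pairs, 12.5% passed in H11-Cas9 but 0% with the Cre-dependent allele). Those nearest to the threshold in H11-Cas9 were Pcna (0.54 ± 0.19, permutation p = 0.0141, adjusted 0.0913) and Lkb1 (0.29 ± 0.12, permutation p = 0.0292, adjusted 0.147), the only 2 with an unadjusted permutation p under 0.05. In H11-LSL-Cas9 that held for 1 of 15, Ccnl2 (0.71 ± 0.21, permutation p = 0.0009, adjusted 0.0612). With a pseudocount of 1 in place of 0.5, 5 of the 15 were called higher in H11-Cas9, as were 24.3% of all pairs, and 1 of the 15 was called in H11-LSL-Cas9.

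**Figure D3:**
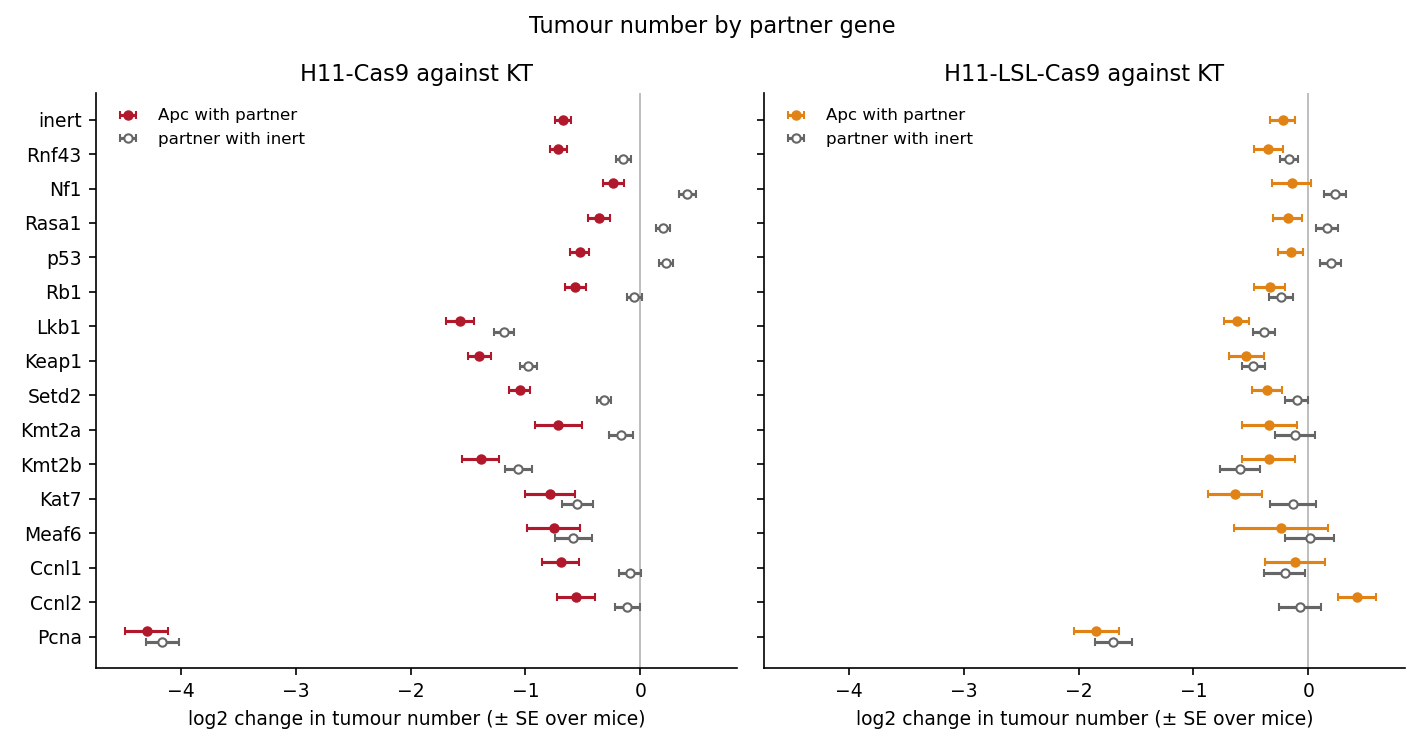
Log2 change in tumour number against KT (relative to inert/inert, ± SE over mice) for Apc with each partner (filled) and for each partner with an inert guide (open), in H11-Cas9 (left) and H11-LSL-Cas9 (right). In H11-Cas9 each filled point lies left of its open one, from -0.23 for Nf1 to -4.30 for Pcna. In H11-LSL-Cas9 the filled points of Ccnl2 (0.42 against -0.07), Kmt2b (-0.35 against -0.59) and Ccnl1 (-0.12 against -0.20) lie right of their open ones. The other partners there lie left.

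Mean size with a partner rose for few Apc pairs. In H11-Cas9, 11 of the 15 pairs had enough tumours to test, and 4 were larger than inert/inert tumours (35.8% of all 106 pairs tested were called larger). The median over the 11 was 0.18 on the log2 scale, as over all pairs (0.18). In H11-LSL-Cas9 1 of 12 passed, and it was smaller (3.64% of pairs were called in either direction). Some of these pairs could not have passed. Ccnl1 had 4 mice in each of these groups and Kmt2b 5 in H11-LSL-Cas9, too few for an exact permutation p under 0.05. Kmt2a had 6 mice in H11-Cas9, which left little room after adjustment. The same limits hold for the counts of steps, interactions and shares below. In KT 0 of 15 passed (1 at an unadjusted p under 0.05), as did 0% of all pairs there. With 9 mice the smallest exact permutation p is 0.00391, so no pair could pass alone after adjustment over 134 pairs. The lack of calls in KT therefore says little.

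The 4 pairs called larger in H11-Cas9 were those with Nf1, Rasa1, Rb1 and Lkb1. For Apc/Nf1 the per-mouse difference was -0.63, 0.30 and 2.21 (lowest, median and highest), with a mean of 0.42 ± 0.09 (above 0 in 33 of 45 mice, adjusted permutation p = 0.000112). For Apc/Lkb1 it was -1.07, 0.48 and 5.11, with a mean of 0.63 ± 0.22 (20 of 34 mice, adjusted permutation p = 0.0136). For Apc/Rb1 it was -1.10, 0.39 and 2.51, with a mean of 0.34 ± 0.12 (26 of 43 mice, adjusted permutation p = 0.0162). Individual mice spread over several doublings for each pair. Apc/Rasa1 averaged 0.21 ± 0.06 (27 of 45 mice, adjusted permutation p = 0.00742). Near 100000 and near 300000 spike-in cells, Apc/Nf1 was 0.39 and 0.46 and passed at both. Apc/Rb1 was 0.57 and 0.09, and Apc/Rasa1 0.28 and 0.12, both passing near 100000 only. Apc/Lkb1 was 0.81 and 0.47 and passed at neither. Against KT, Apc/Nf1 alone kept its call (0.41 ± 0.10, adjusted permutation p = 0.0140, 24% of pairs passing), with Apc/Rb1 at 0.42 ± 0.14 (adjusted permutation p = 0.0502) and Apc/Lkb1 at 0.60 ± 0.23 (adjusted permutation p = 0.0768).

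The pair called in H11-LSL-Cas9 was Apc/Pcna, at -1.45, -0.64 and -0.11 over 13 mice, all below 0. Its mean was -0.65 ± 0.12 (exact permutation p = 0.000244, adjusted 0.00895), and against KT -0.62 ± 0.15 (adjusted permutation p = 0.0426, 1.92% of pairs passing). Relative to Apc beside an inert guide it was -0.60 ± 0.11 (below 0 in 13 of 13 mice, adjusted exact permutation p = 0.0146, with 2.76% of all second steps passing). Pcna beside an inert guide was itself smaller than inert/inert in this group (-0.32 ± 0.10, adjusted exact permutation p = 0.0436). Apc added to Pcna gave -0.26 ± 0.11 and did not pass (adjusted exact permutation p = 0.274).

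Single steps in mean size were mostly within the error. Adding Apc to a partner passed for 0 of 11 in H11-Cas9 (11.3% of second steps passed, and 0 of the 11 at an unadjusted p under 0.05) and 0 of 12 in H11-LSL-Cas9 (1 unadjusted, Pcna). The largest values in H11-Cas9 by a well-populated partner were 0.40 ± 0.22 for Lkb1 (adjusted permutation p = 0.259) and 0.18 ± 0.10 for Rb1 (adjusted permutation p = 0.264). Adding a partner to Apc passed for 0 of 11 in H11-Cas9 (2 unadjusted), with Nf1 at 0.26 ± 0.09 (adjusted permutation p = 0.0501) and Lkb1 at 0.51 ± 0.20 (adjusted permutation p = 0.0863). The interaction with p53 was negative (-0.30 ± 0.09, below 0 in 30 of 44 mice, adjusted permutation p = 0.0140, 21.7% of pairs passing). Against KT it was -0.23 and did not pass (adjusted permutation p = 0.397, 2.02% of pairs passing). In H11-LSL-Cas9 no Apc interaction passed (0 of 12, also unadjusted, and 0% of all pairs). Ccnl1 and Kmt2b, with 3 and 4 mice there, could not have passed.

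**Figure D4:**
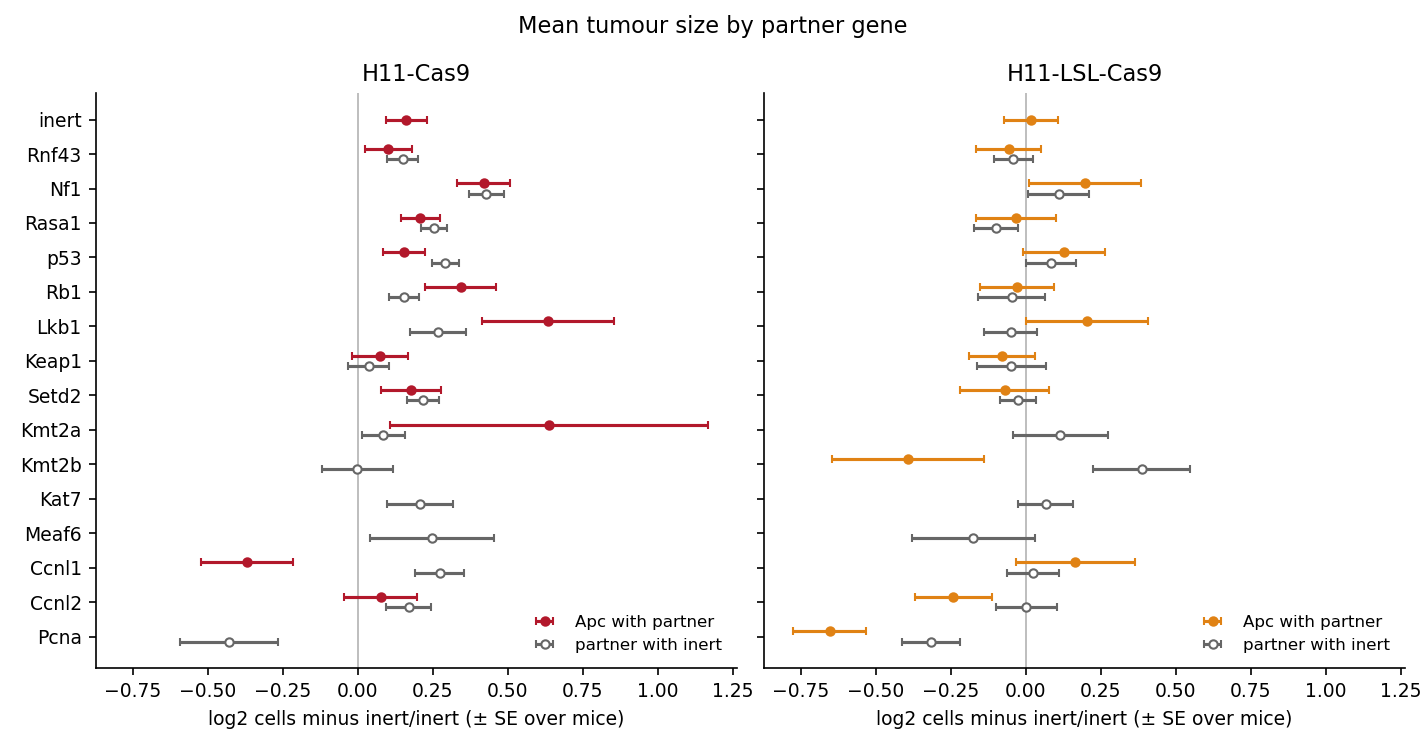
Difference in mean log2 cells from inert/inert tumours of the same mouse (± SE over mice) for Apc with each partner (filled) and each partner with an inert guide (open), in H11-Cas9 (left) and H11-LSL-Cas9 (right). A filled point is missing where too few mice held 5 tumours of the pair. In H11-Cas9 Apc with Nf1 (0.42) and with Lkb1 (0.63) lie farthest right among the pairs with over 10 mice, and in H11-LSL-Cas9 Apc with Pcna lies at -0.65.

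The share of large tumours in each Apc pair was also set against inert/inert, which does not separate a pair from Apc or the partner alone. In H11-Cas9, 7 of the 11 testable Apc pairs held more tumours of at least 5000 cells than inert/inert (44.3% of all pairs passed). They were Lkb1 with 33 of 387 (8.53%), Rb1 with 35 of 581 (6.02%), Setd2 with 25 of 573 (4.36%), Nf1 with 41 of 943 (4.35%), Keap1 with 16 of 511 (3.13%), Rasa1 with 19 of 784 (2.42%) and p53 with 22 of 931 (2.36%). Apc/inert held 2.69%, above the Rasa1 and p53 pairs and below the others listed. Beside an inert guide these partners held, in the same order, 6.07%, 2.19%, 3.13%, 3.25%, 1.64%, 1.38% and 1.43%. Rnf43, the other Wnt regulator, held 15 of 767 (1.96%) beside Apc and did not pass (adjusted permutation p = 0.0917). No tumour of this size was found among the 60 of Apc/Kmt2b or the 54 of Apc/Pcna, which allows shares of up to 5% and 5.56% if a count of 0 stands for up to 3 tumours (upper exact binomial bounds 5.96% and 6.60%).

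In H11-LSL-Cas9, 3 of 12 passed (26.4% of all pairs did): Nf1 with 14 of 361 (3.88%), Setd2 with 12 of 326 (3.68%) and p53 with 13 of 437 (2.97%). Apc/Lkb1 held 14 of 254 (5.51%, adjusted permutation p = 0.0533). In KT mice the Apc pairs held between 0.280% and 2.65%, and none passed, as 0% of all pairs did. As for mean size, 9 KT mice left almost no room for a call after adjustment. Among the reported pairs with over 200 tumours, Lkb1 had the highest share in both groups with Cas9, while Rb1 stood second in H11-Cas9 and at 2.51% (6 of 239) in H11-LSL-Cas9.

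**Figure D5:**
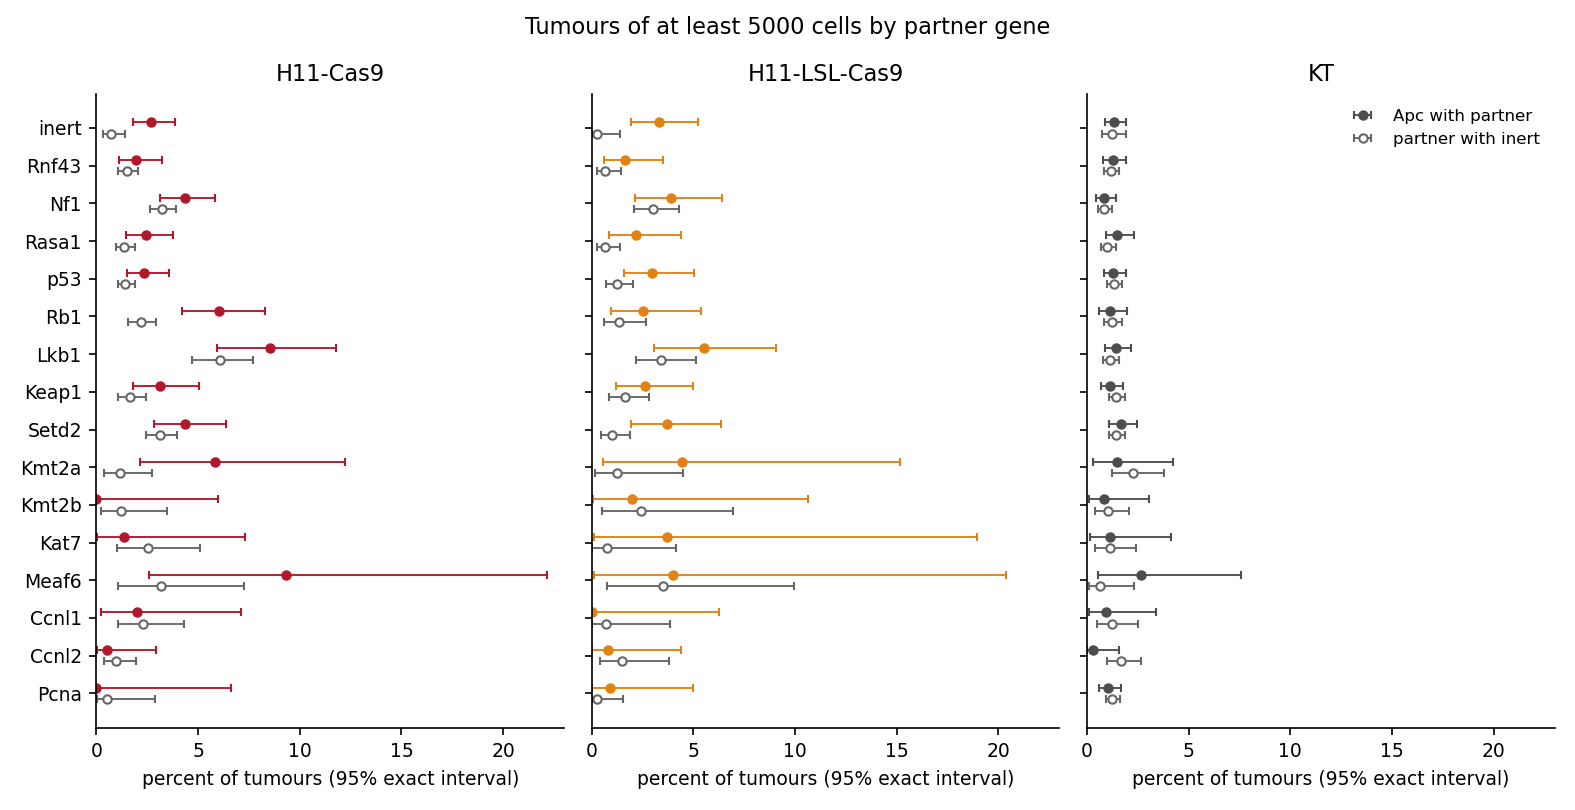
Percent of tumours with at least 5000 cells (with 95% exact binomial intervals, pooled over mice) for Apc with each partner (filled) and each partner with an inert guide (open), in H11-Cas9, H11-LSL-Cas9 and KT. Apc with Lkb1 (8.53%) and with Rb1 (6.02%) lie highest among the well-populated pairs in H11-Cas9, while the KT points lie between 0.280% and 2.65%.

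Among the steps to 5000 cells in H11-Cas9 (11.8% of second steps passed), Apc added to Rb1 passed. Apc added to Lkb1 did not (2.15 ± 2.13 points, adjusted permutation p = 0.785), and Lkb1/inert held 62 of 1021 tumours of that size (6.07%). Apc/Rb1 had 35 of 581 tumours of that size (6.02%) and Rb1/inert 41 of 1875 (2.19%), a per-mouse difference of 3.97 ± 1.25 points (higher in 20 mice and lower in 10 of 43, adjusted permutation p = 0.0109). Apc/Rb1 shares per mouse ranged from 0% to 40%, with a median of 0%. It kept its call when any 1 mouse was left out (3.11 to 4.25 points). Within spike-in totals it was 5.45 points near 100000 cells (adjusted permutation p = 0.0564) and 2.26 near 300000 (adjusted permutation p = 0.405). In the other direction, Lkb1 added 6.08 ± 2.06 points to Apc (adjusted permutation p = 0.0285) and Rb1 3.47 ± 1.24 (adjusted permutation p = 0.0450). These lost their calls on leaving out 1 mouse in 4 and in 20 of 45 cases. In H11-LSL-Cas9 none of these steps passed. There, Apc added to Rb1 gave 1.14 ± 1.19 points (adjusted permutation p = 0.920). Rb1 added to Apc gave -1.42 ± 0.94 (adjusted permutation p = 0.541) and Lkb1 added to Apc 1.13 ± 2.29.

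At 50000 cells, the pairs called in H11-Cas9 were Apc/Lkb1 with 21 of 387 tumours (5.43%) and Apc/Nf1 with 27 of 943 (2.86%), where 23.6% of pairs passed. Apc beside an inert guide had 5 of 1041, Lkb1/inert 18 of 1021 (1.76%), Nf1/inert 15 of 3234 (0.464%) and inert/inert 0. Apc added to Lkb1 did not pass (3.70 ± 1.76 points, adjusted permutation p = 0.184). Apc added to Nf1 raised the share by 2.18 ± 0.64 points (higher in 16 mice and lower in 9 of 45, adjusted permutation p = 0.00689, where 11.8% of second steps passed). Nf1 added to Apc raised it by 2.27 ± 0.70 points and Lkb1 added to Apc by 5.18 ± 1.68 points, both with an adjusted permutation p of 0.0107. These 3 steps kept their calls without any 1 mouse, and within either spike-in total alone none of them passed, with the step of Apc on Nf1 at 1.52 points (adjusted permutation p = 0.470) near 100000 cells and 2.99 points (adjusted permutation p = 0.0972) near 300000. In H11-LSL-Cas9 Apc/Nf1 held 7 of 361 tumours of this size (1.94%) and Nf1/inert 4 of 1022 (0.391%), a step of 1.58 ± 0.62 points (permutation p = 0.0155, adjusted 0.393). Nf1 added to Apc gave 1.32 ± 0.66 points there (adjusted permutation p = 0.652) and Lkb1 added to Apc 1.10 ± 0.95, and neither passed.

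The very largest tumours often carried an Apc guide. These counts take in Apc beside any partner, and the partner not reported here held part of them. Among reported partners, most of those of at least 100000 cells in H11-Cas9 lay beside Nf1 (22) and Lkb1 (17). In H11-Cas9, 90 of 565 tumours of at least 100000 cells did (15.9%, against 7.76% of all tumours), and 22 of 42 of at least 1000000 cells (52.4%). In H11-LSL-Cas9 the counts were 28 of 162 (17.3%, against 9.21%) and 4 of 7 (57.1%). In KT 1 of 3 tumours of at least 100000 cells did, beside Rasa1. No Apc tumour of at least 100000 cells carried an inert guide as its other guide.

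Of the Apc tumours of at least 1000000 cells, 19 lay beside partners reported here, in 13 mice, and 15 of the 19 carried Apc_V2. In H11-Cas9, 6 lay beside Nf1, 5 beside Lkb1, 3 beside p53 and 1 beside Keap1, and in H11-LSL-Cas9 3 beside Lkb1 and 1 beside Nf1. The largest, with Nf1_V1 and Apc_V2 in H11-Cas9 mouse 14, had 36808494 cells, which was 78.9% of all tumour cells in that mouse. The next had Apc_V2 and Keap1_V2 in H11-Cas9 mouse 24 and 10992704 cells (18.5% of that mouse). Then followed Nf1_V2 with Apc_V2 in mouse 12 (4165574 cells), Lkb1_V2 with Apc_V2 in mouse 17 (4104168 cells) and, in H11-LSL-Cas9 mouse 10, Nf1_V1 with Apc_V2 (3938725 cells). Mouse 10 also held Lkb1_V2 with Apc_V2 and Lkb1_V1 with Apc_V2 tumours of 3232238 and 2828485 cells, so 3 of the 19 came from that mouse. Each was the product of 1 barcode in 1 animal, so these counts describe the tumours found and carry no test.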

How the data were processed

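The barcode and guide region was amplified from 32 µg of lung DNA per mouse and sequenced, per the labels' protocols. The authors deposited 1 table of tumours with a read count (whole reads per barcode, guide pair and mouse) and a cell number, used here as a signal that the authors derived, since in the deposited file it equals reads times 1 factor per mouse. The sources used here do not give how reads became barcodes or which filters applied. Both spike-in totals are read from the spike-in barcodes of the table and are not stated to be batches.

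Mice were grouped by genotype label. Genotypes needed 5 tumours in a mouse for size and share comparisons. Size is the within-mouse difference in mean log2 cells, tested over mice by two-sided sign permutation (exact for up to 16 mice, otherwise 100000 draws). Number is log2 of (tumours + 0.5) over (inert/inert tumours + 0.5), Cas9 group minus KT, tested two-sided by a studentised permutation of group labels (100000 draws) in mice with 5 or more inert/inert tumours. Folds of number are 2 to the power of that difference. Shares of large tumours were tested as sizes were. Genotypes were fitted over the whole pool and p-values adjusted by the Benjamini-Hochberg method over all genes, pairs or steps of a kind in a group, at a threshold of 0.05, and guide and place comparisons carry unadjusted p-values unless said otherwise. An interaction is the pair minus both single effects. Percentiles are pooled over tumours with errors from leaving out each mouse, which can be too small for a percentile set by few tumours. One partner gene and 1 allele shared by all groups are not reported here. The members, the lists and the sizes of 5000 and 50000 cells were chosen with earlier results of these data known. Mice are labelled as separate animals. Tests were checked on simulated data. Statistics used scipy 1.17.1 and numpy 2.4.6 under Python 3.11.15, tables pandas 2.3.3 and plots matplotlib 3.10.9. Alternatives covered the smallest tumour, the tumours required, the spike-in total, same-guide and NE constructs, the summary of size, adaptive sampling (the largest tumours, as many as the KT share times 50% of inert/inert tumours), pseudocount, plain means, a cap on size, and each mouse left out.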

Additional observations from a re-analysis of the deposited data

Results flagged for a closer look

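The fall in Apc tumour number differed between H11-Cas9 and H11-LSL-Cas9 mice for Apc beside an inert guide and for 8 of the 15 pairs, by permutation of the group labels. The values are H11-Cas9 minus H11-LSL-Cas9 on the log2 scale, and all are negative. Beside an inert guide the difference was -0.45 (adjusted permutation p = 0.00357), where 23.5% of the 17 genes passed. Beside Pcna it was -2.45 and beside Lkb1 -0.95, beside Setd2 -0.69 (adjusted permutation p = 6.48e-05 for each of these 3), and beside Kmt2b -1.05 (adjusted permutation p = 0.00167). Beside Ccnl2 it was -0.98 (adjusted permutation p = 0.000163), beside Keap1 -0.86 (adjusted permutation p = 0.000124), beside p53 -0.38 (adjusted permutation p = 0.0102) and beside Rnf43 -0.36 (adjusted permutation p = 0.0254). Over all pairs of the pool 44.9% passed. All H11-LSL-Cas9 mice had spike-in totals near 300000 cells, and the origin of the difference was not tested. Among the 32 sets of KT values examined, no mouse stood apart from the others.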

How the results depend on the processing

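The fall in number of Apc/inert tumours in H11-Cas9 kept its direction and call in all settings but 1: among tumours of at least 1000 cells it was -0.18 (adjusted permutation p = 0.577). The H11-LSL-Cas9 value was -0.73 and passed among tumours of at least 200 cells (adjusted permutation p = 0.00554), and was 0.44 at 1000 cells. Leaving out each KT mouse gave -0.69 to -0.65 for H11-Cas9, while H11-LSL-Cas9 ran between -0.24 and -0.20. The mean size of Apc/inert tumours in H11-Cas9 was less stable. It lost its call with at least 10 tumours (0.13), mice weighted by tumours (0.14), set against KT (0.10) and with Apc_V1 alone (0.10), and changed sign near 300000 spike-in cells (-0.0049), by the median (-0.016) and under adaptive sampling (-0.38, adjusted permutation p = 0.0027), which by construction counts number and size together. Leaving out each mouse gave 0.13 to 0.18 in H11-Cas9, with the call lost in 8 of 45 cases, -0.035 to 0.047 in H11-LSL-Cas9 and 0.02 to 0.08 in KT. In H11-LSL-Cas9 it was -0.21 by the median, -0.042 against KT and -0.11 with Apc_V1 alone, and in KT -0.051 near 300000 cells.

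The 90th percentile difference in H11-Cas9 (0.51, passing) was 0.98 at 200 cells and 0.21 near 300000 spike-in cells, neither passing. Summed cells were -0.45 near 300000 cells and -0.15 with a cap in H11-Cas9. For H11-LSL-Cas9 they were 1.13 and 0.48, neither passing. The place difference in size in H11-LSL-Cas9 (-0.26, permutation p = 0.0400) was -0.35 at 200 cells and did not pass (exact permutation p = 0.348).

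Counts of calls moved as follows. For size in H11-Cas9, pairs passing were 7 of 8 at 200 cells and 1 of 10 near 300000, Apc steps 1 with at least 10 tumours, partner steps 2 with at least 10 tumours and 1 near 300000, and interactions 4 with same-guide constructs kept, 2 with at least 10 tumours and 0 near 300000. In H11-LSL-Cas9, pairs were 0 with at least 10 tumours and partner steps 0 at that setting and at 200 cells. For number in H11-Cas9, pairs were 9 near 300000 and 8 by plain means, Apc steps 7 near 100000, 5 near 300000 and 6 by plain means, and interactions 5 with a pseudocount of 1 and 6 at 200 cells, where Apc added to Pcna turned to 0.76 (adjusted permutation p = 0.0102). In H11-LSL-Cas9, pairs were 2 near 300000, 2 by plain means and 10 at 200 cells, Apc steps 0 near 300000 and by plain means, and interactions 1 with a pseudocount of 1. The causes were not tested, although restricting mice or tumours leaves fewer to test. Size at 1000 cells in the Cas9 groups and H11-LSL-Cas9 near 100000 cells gave no value. No paired analysis was possible because each mouse belongs to 1 group and no label ties mice across groups.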
